A study of Mus musculus with 78 samples.

Results

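Cerebral arteries of sham-operated mice were compared between 2 diets on day 14 after surgery, intermittent fasting (IF) and free access to food (ad libitum, AL). The 8 libraries were every library of the 78 in the series that the labels give as sham and day 14, 4 of IF (SHAM14IF) and 4 of AL (SHAM14AL). All 8 came from wild-type male C57Bl6 mice that had followed their diet for 3 months before the operation. The other 70 libraries cover the same diets in sham mice on days 1, 7, 21 and 30 and in mice with bilateral carotid artery stenosis (BCAS), a narrowing of both neck arteries that lowers blood flow to the brain. The age of the mice, the fasting schedule, whether the diet went on after the operation, and the time of day and hours since feeding at which tissue was taken are not given in the sources used here. Nothing in the labels says that the 4 libraries of a group came from 4 separate mice, so the p-values measure the spread between libraries only. In the main gene tests that spread was pooled over the 20 groups of all 78 libraries.

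Cerebral arteries are tubes of smooth muscle lined by endothelium, wrapped in fibroblasts and leptomeningeal cells. Their cells carry a circadian clock, in which CLOCK, NPAS2 and ARNTL (BMAL1) switch on the PER, CRY and REV-ERB genes, whose products then switch their activators off, and feeding time is one of the signals that set it. Cells also hold chaperones that keep proteins folded: the heat shock proteins of the cytosol and mitochondria, driven by HSF1, and the chaperones of the endoplasmic reticulum, driven by ATF6 and XBP1, which scale with the load of secreted protein. The heat shock proteins respond to heat, and both systems respond to feeding.

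Depth lay between 15906716 and 23928339 fragments in the 8 libraries, and between 14601572 and 25944175 over all 78. Depth, the share of mitochondrial fragments and 5 other library measures were compared between the diets with an exact two-sided permutation test, and the smallest p was 0.1143 (adjusted over the 7 measures, 0.4), where 4 against 4 libraries can reach 0.0286. The labelled tissue carried its defining markers: Acta2, the smooth muscle actin, lay between 4311 and 6155 FPKM (fragments per kilobase of gene, scaled for depth), and the endothelial claudin gene Cldn5 between 383 and 496 FPKM. None of the 12 smooth muscle markers and 1 of the 15 endothelial markers passed the threshold described below. The smooth muscle markers leaned towards IF, with 11 of the 12 log2 changes (IF minus AL) positive and a median of 0.22. The endothelial median was -0.03. Ptgds, a leptomeningeal gene, made up 5.76% to 8.42% of fragments.

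The 4 AL libraries did not form a uniform group. AL replicates 1 and 2 stood above the other 6 libraries in Lcn2, an iron-binding protein made in inflammation, at 228 and 176 FPKM, against 17.97 and 18.02 FPKM in AL replicates 3 and 4. The mean log2 level of 6 acute-phase genes was 4.86 and 4.60 in AL replicates 1 and 2, 3.02 and 3.42 in AL replicates 3 and 4, and 2.79 to 3.05 in the IF libraries. AL replicates 3 and 4 were instead rich in red blood cell genes, with a mean log2 level of 5.18 and 5.17, against 3.02 and 3.81 in AL replicates 1 and 2 and 2.61 to 3.09 with IF. IF replicate 1 held more oligodendrocyte transcripts than the other 7, with a mean log2 level of 4.60 against 2.18 to 2.87. Counts are therefore also given without each pair of AL libraries, an alternative chosen after seeing the data.

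Of 15707 genes tested with limma, 689 passed an adjusted p of 0.05 (4.39%), 334 higher with IF (2.13%) and 355 lower (2.26%). The changes were mostly small. A total of 66 of the higher and 76 of the lower genes differed by more than 1.5-fold, and 18 in each direction by more than 2-fold. The libraries of the diets did not overlap in 1867 of all genes tested (11.9%) and in 592 of the 689. Of the genes that passed, 634 were protein coding (290 higher, 344 lower). The count was 646 without AL replicates 3 and 4 and 91 without AL replicates 1 and 2, of which 89 were among the 689. Leaving out single libraries gave 332 genes without AL replicate 1, 440 without IF replicate 1, 381 without IF replicate 2 and 465 to 711 without any other, and 213 genes (98 higher, 115 lower) passed in all 8 of these fits.

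Clock genes changed in both directions. Of 20 clock genes, 9 rose and 4 fell with IF, and 7 did not pass. Their median log2 change was 0.44, against 0.0001 over all genes tested. The rises included repressors and output genes of the clock (Per2, Per3, Cry2, Ciart, Bhlhe41, Nr1d2, Dbp and Tef), and the falls were in its activators (Arntl, Clock and Npas2) and in Nfil3, a repressor that competes with DBP and TEF for the same DNA sites.

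Dbp (ENSMUSG00000059824, chromosome 7, 45705088 to 45710203 on GRCm38), which encodes a clock output transcription factor, was at 8.30, 4.31, 18.6 and 13.8 FPKM in AL replicates 1 to 4 and at 35.9, 49.0, 49.5 and 48.1 FPKM with IF. Every IF library lay above every AL library, and the AL libraries spread more widely than those of IF. The log2 change in limma, IF minus AL, of FPKM + 1 was 2.08 ± 0.26 (SE, adjusted p = 1.04e-07). Nfil3 (ENSMUSG00000056749, chromosome 13, 52967209 to 52981073) went the other way, from 16.4, 21.4, 9.97 and 10.9 FPKM with AL to 4.03, 2.92, 2.94 and 3.97 FPKM with IF, a log2 change of -1.76 ± 0.18 (adjusted p = 1.07e-10). The AL libraries lowest in Dbp, replicates 1 and 2, were the ones highest in Nfil3.

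Per3 (ENSMUSG00000028957, chromosome 4, 151003652 to 151044665), which encodes a period protein, had the smallest p of all genes tested. It was at 2.19, 2.18, 3.70 and 4.17 FPKM with AL and at 8.61, 9.10, 8.99 and 9.16 FPKM with IF, a log2 change of 1.33 ± 0.12 (adjusted p = 9.35e-13). The IF libraries were within 1 FPKM of each other, and AL replicates 1 and 2 were again the farthest from them. Tef, a relative of Dbp, rose from 14.4 ± 2.65 FPKM (SD, n = 4) to 33.0 ± 3.16 FPKM, and Per2 from 3.39 ± 0.35 FPKM to 9.13 ± 0.90 FPKM. Ciart, a transcriptional repressor of the clock, rose by 1.36 ± 0.29, Nr1d2, which encodes REV-ERB beta, by 0.88 ± 0.14, and the cryptochrome gene Cry2 by 0.67 ± 0.09 on the log2 scale. Neither group overlapped the other in any of these 5 genes.

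Arntl, which encodes the partner of CLOCK, fell from 4.09 ± 0.82 FPKM to 1.33 ± 0.43 FPKM, a log2 change of -1.13 ± 0.15 (adjusted p = 2.71e-07). Npas2, a close relative of Clock, was at 2.05, 2.07, 1.92 and 1.92 FPKM with AL and at 0.617, 0.286, 0.608 and 0.452 FPKM with IF, a log2 change of -1.01 ± 0.16. All 4 IF libraries were under 1 FPKM and all 4 AL libraries near 2 FPKM. Clock itself moved less, by -0.40 ± 0.08. Per1 (0.64 ± 0.22, adjusted p = 0.0786) and Nr1d1, which encodes REV-ERB alpha (0.49 ± 0.25, adjusted p = 0.295), did not pass, and in Nr1d1 the groups overlapped. Cry1 was at 5.40 FPKM in both groups, with a log2 change of 0.01 ± 0.15. Usp2 (0.80 ± 0.13) and Wee1 (0.64 ± 0.13), known clock-controlled genes outside the list, rose too and were chosen after their values were seen.

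The clock calls rested little on any 1 library. In the 8 fits that left out 1 library, 8 or 9 clock genes rose and 4 fell, and of the 13 called genes Bhlhe41 alone lost its call, with an adjusted p of up to 0.084 without AL replicate 1, AL replicate 2, IF replicate 2 or IF replicate 3. With AL replicates 1 and 2 both left out, 5 rose and 3 fell, and the log2 change of Dbp was 1.44, that of Nfil3 -1.37 and that of Per3 1.02.

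**Figure D1:**
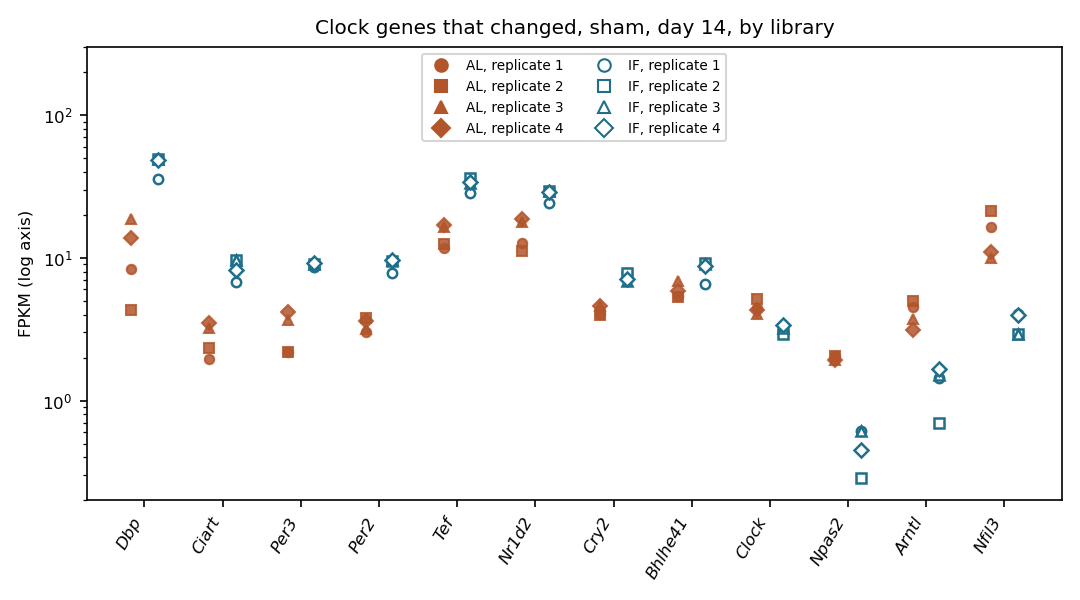
Level in each library (FPKM, log axis) of 12 of the 13 clock genes that passed the threshold in sham mice on day 14, with AL as filled and IF as open symbols and 1 symbol shape per replicate number. Dbp stands at 4.31 to 18.6 FPKM with AL and 35.9 to 49.5 FPKM with IF, and the order is turned round for Clock, Npas2, Arntl and Nfil3.

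Promoter sequences were searched for sites known to bind clock proteins, and are given for the clock genes that changed and hold one. The 250 bases before each RefSeq start (GRCm38.p6, both strands) were searched for the E-box CACGTG, bound by CLOCK and ARNTL, the D-box TTANGTAA, bound by DBP, TEF and NFIL3, and the REV-ERB site ANTAGGTCA. Of the 13 called clock genes 11 matched the RefSeq table. An E-box was found in 3 of them, Ciart, Tef and Bhlhe41, and in 2 of the 5 matched clock genes that did not pass, Per1 and Cry1, against 6.86% of all 27025 genes in the table and 9.67% of the 10250 tested genes that matched it. A D-box was found in Per3 (2.44% of all genes) and a REV-ERB site in Nfil3 (0.585% of all genes). The other matched called clock genes, Dbp, Cry2, Nr1d2, Arntl, Clock and Npas2, held none of these motifs in the bases searched. A match is a description of the letters and not of binding. The windows printed for Tef and Nfil3 lie before a RefSeq start but overlap annotated exons of GENCODE M21. In the gene-strand sequences that follow, capitals mark the motif in either orientation, for Ciart at chr3:95882262-95882291 (minus strand), Tef at chr15:81802541-81802556 (plus), Bhlhe41 at chr6:145865563-145865578 (minus), Per3 at chr4:151044811-151044875 (minus) and Nfil3 at chr13:52981040-52981056 (minus).
Ciart: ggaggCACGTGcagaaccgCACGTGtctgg
Tef: ggctcCACGTGctgca
Bhlhe41: ttccgCACGTGagctg
Per3: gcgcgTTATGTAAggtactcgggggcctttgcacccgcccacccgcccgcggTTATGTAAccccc
Nfil3: ggaacTGACCTACTaac
Ciart holds 3 E-boxes in its window, of which the 2 nearest the start are shown, and Per3 holds 2 D-boxes. Both genes rose with IF, with Per3 having the smallest p of all genes tested.

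The heat shock chaperones fell together. Of 17 genes, 14 were lower with IF and none higher, with a median log2 change of -0.72. The inducible Hsp70 gene Hspa1b (ENSMUSG00000090877, chromosome 17, 34956436 to 34959238) was at 48.4, 54.6, 20.2 and 29.4 FPKM with AL and at 7.21, 7.56, 7.70 and 10.2 FPKM with IF, a log2 change of -2.003 ± 0.40 (adjusted p = 0.000863). The groups did not overlap, and AL replicates 1 and 2 were the highest. Hspa1a, a near-identical copy whose reads can be shared with Hspa1b, fell by 1.41 ± 0.35 on the log2 scale.

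Constitutive chaperones fell as well, from high levels. Hspa8 (ENSMUSG00000015656, chromosome 9, 40800984 to 40810087), the constitutive Hsc70, was at 582, 646, 486 and 567 FPKM with AL and at 279, 287, 246 and 333 FPKM with IF, a log2 change of -0.99 ± 0.14 (adjusted p = 2.68e-06). Its AL libraries lay close together and all well above the IF libraries. Hsp90ab1, the constitutive Hsp90, fell from 531 ± 56.9 FPKM to 321 ± 22.4 FPKM. Stip1, the cochaperone that links Hsp70 to Hsp90, fell from 96.9 ± 11.4 FPKM to 55.9 ± 5.83 FPKM, and Hsph1, an Hsp70 nucleotide exchange factor, by 1.26 ± 0.19 on the log2 scale. Hspd1, the mitochondrial Hsp60, fell from 73.6 ± 5.36 FPKM to 49.7 ± 1.17 FPKM. Hsf1, the gene of the transcription factor that drives them, was not among the 14 (-0.15 ± 0.09, adjusted p = 0.434), nor were Bag3 (-0.24 ± 0.09) and Dnajb1 (-0.48 ± 0.17, adjusted p = 0.0934).

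Over the 8 fits that left out 1 library, 10 to 14 heat shock chaperones passed, and 10 of the 14 passed in every one. Hspb1, a small heat shock protein abundant in smooth muscle, lost its call without AL replicate 1 (adjusted p = 0.0614), and Hspa1a without AL replicate 1 or 2 (up to 0.0531). Hspa4 and Hspe1 each lost theirs without AL replicate 1, AL replicate 2 or IF replicate 2, Hspa4 also without IF replicate 1 and Hspe1 also without IF replicate 3 (up to 0.0797 and 0.104). Without AL replicates 1 and 2 together 5 of the 17 passed, all 17 log2 changes were negative and their median was -0.49. Hspa8, Hsph1, Hsp90ab1, Hspd1 and Stip1 were those 5. Without AL replicates 3 and 4 the median was -0.84 and 14 passed.

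The genes of the endoplasmic reticulum stress response were lower too. Of 16 genes 10 fell, none rose, and their median log2 change was -0.57. Hspa5 (ENSMUSG00000026864, chromosome 2, 34771970 to 34777547), which encodes the chaperone BiP, was at 246, 207, 208 and 246 FPKM with AL and at 153, 121, 86.4 and 118 FPKM with IF, a log2 change of -0.94 ± 0.21 (adjusted p = 0.00417). No IF library reached the lowest AL library, and AL replicates 1 and 2 did not stand out from replicates 3 and 4. Xbp1 (ENSMUSG00000020484, chromosome 11, 5520659 to 5525893), a transcription factor of this response, fell from 82.0 ± 5.98 FPKM to 48.8 ± 4.56 FPKM, a log2 change of -0.74 ± 0.10 (adjusted p = 2.51e-06).

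The other 8 that fell were chaperones and helpers of folding. Sdf2l1, a cofactor of BiP, was at 52.96, 44.5, 41.6 and 44.3 FPKM with AL and at 22.3, 18.6, 12.99 and 16.8 FPKM with IF, a log2 change of -1.34 ± 0.22 (adjusted p = 5.08e-05). It had the largest fall of the list. Creld2, a secreted disulfide isomerase, fell by 1.06 ± 0.18 and Manf, a secreted cofactor of BiP, by 0.93 ± 0.18 on the log2 scale. The disulfide isomerases Pdia4 and Pdia6, the Hsp90 paralogue Hsp90b1, the lectin chaperone Calr and the cochaperone Dnajb9 fell by between 0.46 and 0.70. The 6 members that did not pass included genes of the amino acid and cell death arm of the response. Ddit3 (CHOP) had a log2 change of 0.04 ± 0.13, Asns -0.11 ± 0.16, Trib3 -0.15 ± 0.19 and Atf4 -0.27 ± 0.09 (adjusted p = 0.0758). Herpud1 and Chac1 did not pass either, and whether the calls divide the list by arm was not tested.

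Secretory genes outside the list, chosen after their values were seen, showed falls of like size. Syvn1, the ubiquitin ligase that removes misfolded proteins, was at 19.1, 17.5, 17.3 and 17.8 FPKM with AL and at 10.3, 11.3, 10.5 and 11.03 FPKM with IF. The collagen chaperone gene Serpinh1 fell from 307 ± 23.3 FPKM to 178 ± 25.1 FPKM, and Creb3l1, a transcription factor of collagen secretion, from 14.3 ± 1.32 FPKM to 7.14 ± 0.88 FPKM. Collagen transcripts themselves did not follow: of 15 collagen genes 1 passed, Col8a1, which was higher (0.40 ± 0.12). P4ha1, a collagen prolyl hydroxylase counted in the hypoxia list, fell from 36.4 ± 3.56 FPKM to 19.2 ± 2.81 FPKM.

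Fits that left out 1 library called 8 to 10 of the endoplasmic reticulum stress genes, and 7 of the 10 passed in every one. Calr and Pdia4 lost their calls without IF replicate 3, the library lowest in all 10 genes that fell (adjusted p = 0.0587 and 0.0512), and Dnajb9 without AL replicate 1 (0.0623). Without AL replicates 1 and 2 the median was -0.58, 4 passed (Xbp1, Sdf2l1, Creld2 and Manf), and the log2 change of Hspa5 was -0.94 with an adjusted p of 0.0808. Col8a1 lost its call without any 1 of 6 libraries, AL replicates 1, 3 and 4 and IF replicates 2, 3 and 4 (adjusted p up to 0.108).

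**Figure D2:**
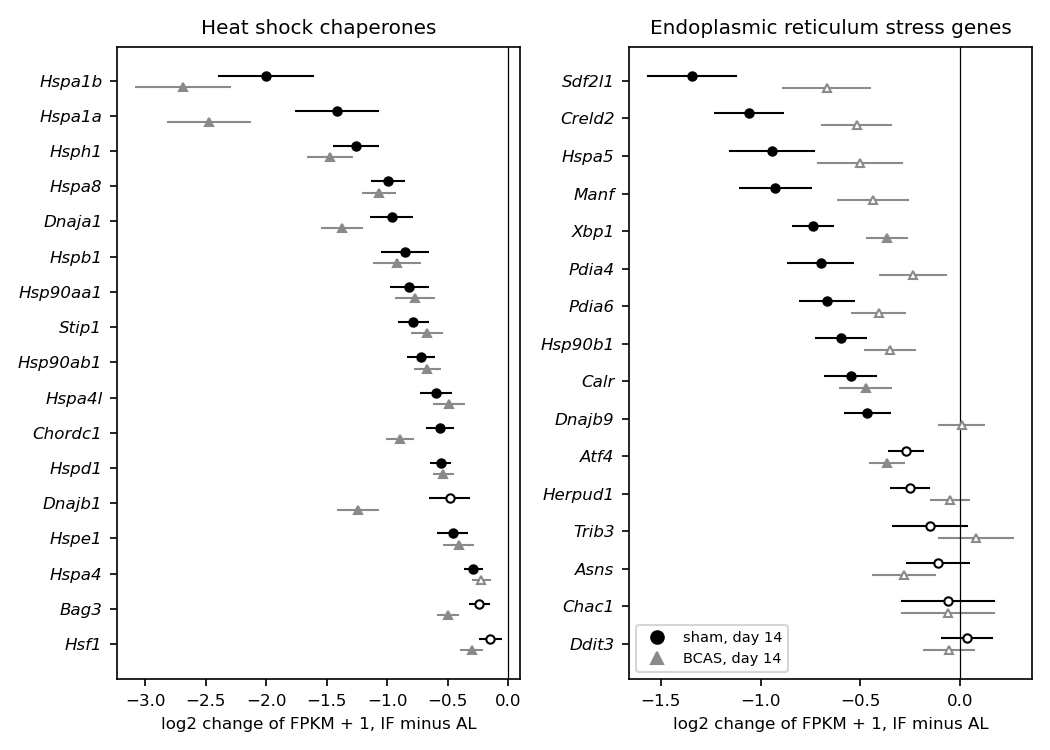
Log2 change of FPKM + 1, IF minus AL, with its standard error, for the 17 heat shock chaperones and the 16 endoplasmic reticulum stress genes in sham mice (circles) and BCAS mice (triangles) on day 14. Filled symbols passed an adjusted p of 0.05. All heat shock changes lie left of 0, with Hspa1b at -2.003 in sham mice, and the endoplasmic reticulum genes lie left of 0 in sham mice except for Ddit3 at 0.04.

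Some promoter windows of these genes hold the site known to bind NF-Y together with ATF6 or XBP1. This endoplasmic reticulum stress response element is CCAAT and CCACG with 9 bases of any kind between them on either strand. It was found in the 250 bases before the start of 5 of the 9 called genes that matched the RefSeq table. Xbp1, Sdf2l1, Pdia4 and Dnajb9 matched the table and held none. In all, 35 of 27025 genes (0.13%) and 16 of the 10250 tested genes that matched (0.156%) held it. Over all genes called lower, 6 of 278 matched genes held it, the sixth being Syvn1. Of the genes called higher, 1 of 236 held it. The window printed for Hspa5 lies before the RefSeq start but overlaps an annotated exon of GENCODE M21, within the gene coordinates given above. The sequences are on the gene strand with the element in capitals, for Hspa5 at chr2:34772020-34772048 (plus strand), Hsp90b1 at chr10:86705633-86705661 and chr10:86705528-86705556 (minus), Creld2 at chr15:88819515-88819543 (plus), Pdia6 at chr12:17266486-17266514 (plus), Calr at chr8:84847070-84847098 (minus) and Syvn1 at chr19:6046527-6046555 (plus).
Hspa5: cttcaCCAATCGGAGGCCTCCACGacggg
Hsp90b1 distal: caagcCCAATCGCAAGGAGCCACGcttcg
Hsp90b1 proximal: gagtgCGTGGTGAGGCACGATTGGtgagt
Creld2: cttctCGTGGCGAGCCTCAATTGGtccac
Pdia6: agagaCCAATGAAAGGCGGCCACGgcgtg
Calr: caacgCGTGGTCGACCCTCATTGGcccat
Syvn1: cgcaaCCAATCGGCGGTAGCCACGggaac
The 6 genes printed here fell with IF by between 0.55 (Calr) and 1.06 (Creld2) on the log2 scale. The element was read from the reference genome, and its use in these arteries was not tested.

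Outside these groups, the largest rises included genes of small-molecule metabolism and of the response to cold. Inmt (ENSMUSG00000003477, chromosome 6, 55170626 to 55175043), which encodes an indolethylamine methyltransferase, was at 6.68, 10.4, 7.80 and 6.13 FPKM with AL and at 22.7, 36.1, 29.6 and 23.2 FPKM with IF, a log2 change of 1.72 ± 0.19 (adjusted p = 2.02e-09). The lowest IF library held more than the highest AL library by over 10 FPKM. Of 13 detoxifying enzymes tested, 3 rose (Inmt, Ephx1 and Adh1) and none fell, and all 13 log2 changes were positive with a median of 0.28. Ephx1, the microsomal epoxide hydrolase, rose from 145 ± 13.7 FPKM to 185 ± 10.6 FPKM. The alcohol dehydrogenase gene Adh1 rose by 0.70 ± 0.17 on the log2 scale, and lost its call without IF replicate 3 (adjusted p = 0.0512).

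Both cold-inducible RNA-binding protein genes rose, with no overlap between the diets. Cirbp (ENSMUSG00000045193, chromosome 10, 80165985 to 80172786) was at 20, 24.0, 28.8 and 19.3 FPKM with AL and at 65.5, 68.3, 59.3 and 42.3 FPKM with IF, a log2 change of 1.31 ± 0.21 (adjusted p = 2.22e-05). Rbm3 rose from 10.4 ± 0.58 FPKM to 19.6 ± 2.69 FPKM, a log2 change of 0.85 ± 0.14. IF replicate 4 was the lowest IF library in both genes. Srsf5, a splicing factor in the same list, did not pass (0.29 ± 0.10, adjusted p = 0.0883). Body temperature is not given in the sources used here.

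Txnip, an inhibitor of thioredoxin and of glucose uptake, was at 74.6, 74.7, 77.5 and 81.8 FPKM with AL and at 116, 145, 117 and 110 FPKM with IF, a log2 change of 0.65 ± 0.10 (adjusted p = 1.36e-05). Its AL libraries were nearly identical, and the IF libraries all stood above them. Wisp2 (also called Ccn5), a secreted matricellular protein of smooth muscle, rose from 13.7 to 33.7 FPKM (1.26 ± 0.25), and the tetraspanin gene Tspan4 from 20.9 ± 2.19 to 50.5 ± 5.06 FPKM (1.23 ± 0.12). Vegfd, a growth factor of lymphatic and blood vessels, rose from 2.48 ± 0.73 to 4.99 ± 0.75 FPKM. Others among the 15 largest named rises were Tcap, a sarcomere protein gene (1.19 ± 0.28), Mthfd1l, an enzyme of mitochondrial folate metabolism (0.94 ± 0.13), Aldh3a1, an aldehyde dehydrogenase (0.94 ± 0.19), Cstad (0.96 ± 0.23), the antisense transcript Atcayos (0.91 ± 0.18) and the processed pseudogene Hmgn2-ps1 (1.12 ± 0.27), whose reads may come from its parent gene. Without AL replicates 1 and 2 the calls of Tcap, Cstad, Hmgn2-ps1 and Aldh3a1 were lost (adjusted p = 0.0784, 0.152, 0.0782 and 0.058).

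Of the named genes Ackr1 and Lcn2 fell the most, and in both the AL libraries split. Ackr1 (ENSMUSG00000037872, chromosome 1, 173331886 to 173333750), a chemokine scavenger of venular endothelium, was at 175, 155, 47.9 and 39.4 FPKM in AL replicates 1 to 4 and at 4.74, 6.43, 9.74 and 10.1 FPKM with IF, a log2 change of -3.35 ± 0.75 (adjusted p = 0.00388). Every AL library was at least 39.4 FPKM and no IF library was above 10.1 FPKM, so the groups were apart even for the lower AL pair, though without replicates 1 and 2 the log2 change was -2.40 with an adjusted p of 0.266. Lcn2 (ENSMUSG00000026822, chromosome 2, 32384633 to 32388252) was at 228, 176, 17.97 and 18.02 FPKM with AL and at 4.68, 4.78, 4.69 and 7.83 FPKM with IF (-3.28 ± 0.97, adjusted p = 0.0367). Its call was lost without any 1 of AL replicates 1 and 2 and IF replicates 1 to 3 (adjusted p up to 0.194), and without AL replicates 1 and 2 together its log2 change was -1.57 (adjusted p = 0.665).

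Other genes shared that split. Upp1, a uridine phosphorylase, was at 7.97, 6.66, 1.78 and 1.72 FPKM with AL and at 0.233 to 1.39 FPKM with IF (-1.54 ± 0.37), and its call was lost without AL replicate 1 (adjusted p = 0.0748). Serpina3f, an acute-phase protease inhibitor of a gene cluster with similar copies, was at 4.80, 6.91, 0.942 and 0.897 FPKM with AL and at 0.127 to 0.351 FPKM with IF (-1.58 ± 0.48, adjusted p = 0.0393). AL replicates 1 and 2 were the highest in both genes. Steap4, a metalloreductase induced by inflammation, fell by 0.98 ± 0.30, with overlap between the groups. Serpina3f and Steap4 lost their calls without any 1 of AL replicates 1 and 2 and the 4 IF libraries (adjusted p up to 0.193 and 0.279). Of 16 chemokine and adhesion genes tested 2 fell, Ackr1 and the chemokine gene Cx3cl1 (-0.29 ± 0.09), and the median was -0.51. Cx3cl1 lost its call without any 1 of the 4 AL libraries and IF replicates 2 to 4 (adjusted p up to 0.136). Of 6 acute-phase genes tested 2 fell, Lcn2 and Steap4, with a median log2 change of -0.92 that was -0.25 without AL replicates 1 and 2.

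The listed interferon-stimulated genes leaned the same way but seldom passed. All 16 log2 changes were negative, with a median of -0.39, and 1 gene passed, Oas1a, an antiviral RNA sensor, at 10.8 FPKM with AL and 5.05 FPKM with IF (-0.85 ± 0.21, adjusted p = 0.0082). AL replicate 1 was its highest library, the groups overlapped, and the call was lost without that library (adjusted p = 0.15). Oas2, Helz2 and Herc6, interferon-stimulated genes outside the list chosen after their values were seen, also fell without overlap between the groups. Their log2 changes were -1.01 ± 0.23, -0.45 ± 0.09 and -0.49 ± 0.11 (adjusted p in limma = 0.00382, 0.00143 and 0.00357). AL replicate 1 was the highest library in each, and only Helz2 passed in every fit that left out 1 library. The mean log2 level of the list was 5.02 in AL replicate 1, 4.04 to 4.44 in the other AL libraries and 3.86 to 4.34 with IF. The median was -0.20 without AL replicates 1 and 2. In BCAS mice on day 14 the median of the same list was 0.14, and over the other sham days it was 0.15.

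The split was absent from Spon2 (ENSMUSG00000037379, chromosome 5, 33198184 to 33218455), a secreted matrix protein, which was at 9.35, 9.13, 8.97 and 9.73 FPKM with AL and at 3.62, 2.70, 2.99 and 3.32 FPKM with IF, a log2 change of -1.31 ± 0.17 (adjusted p = 1.78e-07). All AL libraries lay within 1 FPKM of each other and far above those of IF, and without AL replicates 1 and 2 the change was -1.32. Grrp1 was at 34.8, 29.9, 23.6 and 27.7 FPKM with AL and at 9.33, 12.8, 13.5 and 12.9 FPKM with IF (-1.19 ± 0.24, adjusted p = 0.00133). Bcl3, a cofactor of NF-kappaB chosen after its values were seen, fell from 9.80 ± 1.37 to 4.33 ± 0.36 FPKM, and Plat, the tissue plasminogen activator, from 52.5 ± 3.82 to 34.6 ± 3.86 FPKM. Neither overlapped between the diets. Cdkn1a, the cell cycle inhibitor p21, was at 30.3, 36.0, 19.3 and 16.1 FPKM with AL and at 10.5 to 14.3 FPKM with IF (-0.98 ± 0.19), with AL replicates 1 and 2 the highest. AL replicates 1 and 2 were also the highest in Srarp, at 34.6 and 30.0 FPKM against 17.9 and 22.9 FPKM in AL replicates 3 and 4. Srarp (-1.13 ± 0.33) and the immunoglobulin segment Ighv1-82 (-1.15 ± 0.33), 1 of a family of near-identical segments, passed too. Both lost their calls without any 1 of AL replicates 1 and 2 and IF replicates 1 and 3, Srarp also without IF replicate 2 and Ighv1-82 also without AL replicate 3 or IF replicate 4 (adjusted p up to 0.147 and 0.127). With both AL replicates 1 and 2 left out the calls of Grrp1, Bcl3, Cdkn1a and Srarp were lost (adjusted p = 0.0986, 0.117, 0.302 and 0.45), and the log2 change was -0.54 for Cdkn1a and -0.81 for Srarp.

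**Figure D3:**
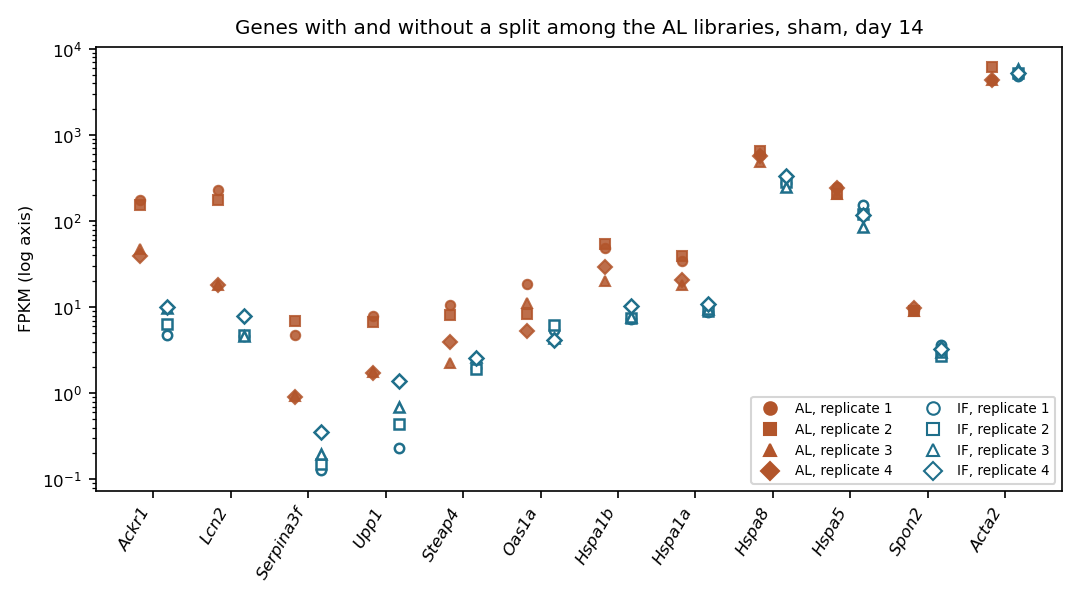
Level in each library (FPKM, log axis) of genes that separate AL replicates 1 and 2 from replicates 3 and 4 (Ackr1 to Upp1, and in part Steap4 to Hspa8) and of genes that do not (Hspa5, Spon2 and Acta2). Lcn2 lies at 176 to 228 FPKM in the first pair and at 17.97 to 18.02 FPKM in the second, while Spon2 lies at 8.97 to 9.73 FPKM in all 4.

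Genes of fuel use showed few calls and small median changes. Of 24 fatty acid oxidation and ketone genes 2 rose, the thiolase Acat1 (0.26 ± 0.06) and the dehydrogenase Hadh (0.23 ± 0.06), and the median was 0.08. Pdk4, which spares glucose in fasting, was at 9.48 ± 3.21 FPKM with AL and 9.84 ± 2.96 FPKM with IF, and Cpt1a, the gate of fatty acid entry into mitochondria, at 25.1 ± 1.28 and 29.6 ± 4.18 FPKM (adjusted p = 0.0613). The groups overlapped in both. Pdk1, a relative of Pdk4 counted in the hypoxia list, rose by 0.47 ± 0.10 on the log2 scale (adjusted p in limma = 0.00222). Of 16 glycolysis genes 1 rose, Pfkm (0.288 ± 0.075, adjusted p = 0.0136), and the median was -0.02. Of 17 genes of fatty acid synthesis and lipid handling 1 rose, Fabp5 (0.53 ± 0.16, adjusted p = 0.0381), and the median was 0.04. Pdk1 passed in every fit that left out 1 library, and Pfkm and Fabp5 did not. Of 23 cholesterol synthesis genes 2 fell, Cyp51 (-0.49 ± 0.13) and the sterol regulator Srebf2 (-0.25 ± 0.06), 20 of the 23 changes were negative, and the median was -0.14. Of 15 glucocorticoid-responsive genes 3 fell, Lcn2, Cdkn1a and the feedback inhibitor gene Errfi1 (-0.44 ± 0.14), and none rose. Errfi1 lost its call without any 1 of AL replicates 1, 2 and 4 and IF replicates 2 to 4 (adjusted p up to 0.151). Fkbp5, Sgk1 and Tsc22d3, which rise with corticosterone, had log2 changes of -0.23 ± 0.26, 0.16 ± 0.17 and 0.26 ± 0.19, none of which passed. Hadh lost its call without AL replicate 2 (adjusted p = 0.0523), and Cyp51 without AL replicate 2 or IF replicate 2 (up to 0.0987).

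Genes of vessel tone and wall structure showed few calls. None of 15 vasoactive genes, 11 potassium channel genes, 14 Notch pathway genes, 20 TGF-beta pathway genes, 13 basement membrane genes or 14 metalloprotease and inhibitor genes passed. Nos3, the endothelial nitric oxide synthase, was at 35.5 ± 3.39 FPKM with AL and 33.6 ± 4.40 FPKM with IF, and Edn1, the endothelin gene, at 42.2 ± 12.1 and 33.6 ± 8.88 FPKM, with overlap in both. The endothelial adhesion genes Icam1 (-0.58 ± 0.23, adjusted p = 0.152) and Vcam1 (-0.23 ± 0.11, adjusted p = 0.239) did not pass, although neither overlapped between the groups. Lox, the collagen and elastin crosslinking enzyme, fell by 0.47 ± 0.13, and lost its call without AL replicate 2, IF replicate 1 or IF replicate 2 (adjusted p up to 0.128). Flt1, a VEGF receptor, fell by 0.40 ± 0.12 and Gja5, the arterial connexin, by 0.54 ± 0.17. Flt1 lost its call without any 1 of AL replicates 1, 2 and 4 and IF replicates 2 to 4, and Gja5 without any 1 of AL replicates 1 and 2 and IF replicates 1 to 3 (adjusted p up to 0.163 and 0.188).

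Markers of other cell types were compared in the same fit. None of the 8 pericyte, 7 fibroblast, 8 macrophage, 5 microglia, 9 neuron, 8 astrocyte and 7 oligodendrocyte markers tested passed. The largest median log2 changes among these lists were 0.32 for the oligodendrocyte and 0.26 for the astrocyte markers. Of 4 Schwann cell markers tested 1 rose, the myelin protein gene Pmp22 (0.21 ± 0.06, adjusted p = 0.0323), and all 4 log2 changes were positive. Pmp22 overlapped between the groups and lost its call without any 1 of AL replicates 1, 2 and 4 and IF replicates 1 to 3 (adjusted p up to 0.154). The summed level of the fibroblast markers was 426 to 464 FPKM with AL and 427 to 519 FPKM with IF, and that of the macrophage markers 227 to 244 and 245 to 288 FPKM. Red blood cell genes summed to 65.5 to 447 FPKM with AL and 48.0 to 89.8 FPKM with IF, with a median log2 change of -1.62 and no call among 5 genes. With a covariate for the red blood cell genes 652 genes passed, and with one for brain tissue 793. The part of acute-phase transcripts in the other results was not tested beyond leaving out libraries. In whole vessels, fewer cells of a type and less RNA per cell cannot be told apart. None of 80 ribosomal protein genes, 75 nuclear oxidative phosphorylation genes and 31 proteasome genes passed, with medians of 0.08, 0.01 and 0.02.

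The same diets were compared in BCAS mice on day 14, in 8 other libraries, where 890 genes passed (5.67%). Of the 689 genes called in sham mice 647 (93.9%) had the same sign there and 293 passed in the same direction (42.5% of the 689 and 32.9% of the 890), and none passed in the opposite direction. The test of the difference between the diet effects of BCAS and sham mice called 0 genes in limma, with 886 at an unadjusted p under 0.05 and a smallest adjusted p of 0.346, and limma-voom on recovered fragments also called 0. The heat shock chaperones gave 14 falls in sham and 16 in BCAS mice, with medians of -0.72 and -0.77. The endoplasmic reticulum stress genes gave 10 and 3 falls, with medians of -0.57 and -0.36, and no member passed the test of the difference. Dbp had a log2 change of 2.94 in BCAS mice, Inmt 1.74, Ackr1 -2.50 and Lcn2 -1.86, the last with an adjusted p of 0.303. By the naming rule for the difference, Ube2h, Dusp27, Nck2, Ighv1-82 and Snx18 had the smallest p, and all 5 had an adjusted p of 0.346.

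**Figure D4:**
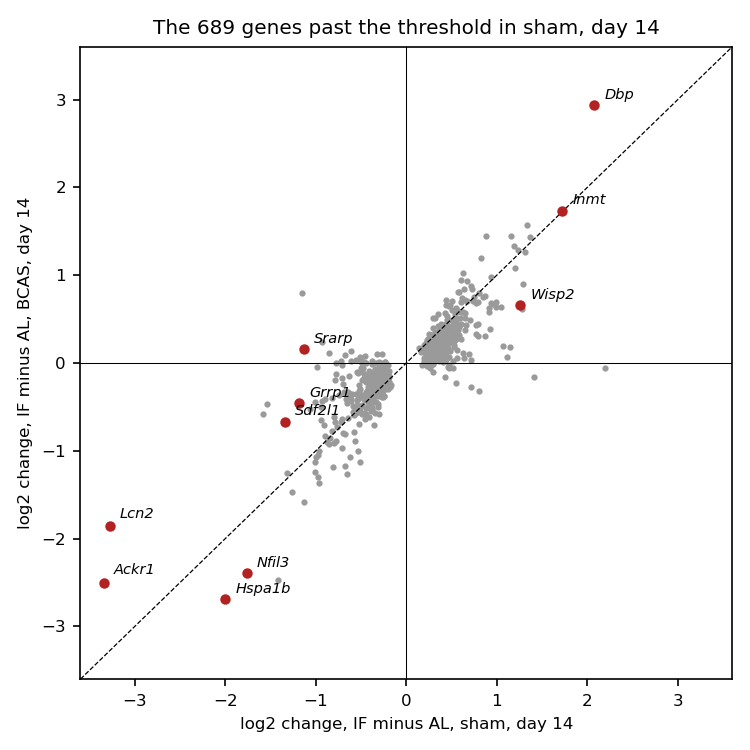
Log2 change of FPKM + 1, IF minus AL, in sham mice (x axis) and BCAS mice (y axis) on day 14 for the 689 genes that passed in sham mice, which were chosen on the x values. The dashed line marks equal changes; 647 of the 689 points have the same sign in both, and Srarp, at -1.13 and 0.16, is among the 42 that do not.

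Across the other sham days (1, 7, 21 and 30), the mean diet effect called 2858 genes (18.2%), with 31 libraries behind it. Of the 689 genes, 661 (95.9%) had the same sign in that mean and 464 passed in the same direction (67.3% of the 689 and 16.2% of the 2858). By day, the share with the same sign was 88.8% on day 1, 89.7% on day 7, 75.2% on day 21 and 94.3% on day 30. Day 21 had the fewest calls of its own, 60. A test of the difference between day 14 and the mean of the other days called 0 genes in limma, with 1155 at an unadjusted p under 0.05 and a smallest adjusted p of 0.112, that of Cnih4, and 0 in limma-voom. Without AL replicates 3 and 4 of day 14 this test called 10 genes. Txndc11, a thioredoxin-domain protein of the endoplasmic reticulum and second by p in that test, was at 5.85, 5.91, 5.82 and 6.10 FPKM with AL and at 3.90, 3.94, 3.81 and 3.91 FPKM with IF on day 14. Its log2 change was -0.50 ± 0.08 on day 14 and -0.13 over the other days (adjusted p of the difference 0.315).

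The clock list had a positive median log2 change on every sham day, between 0.28 on day 1 and 0.44 on day 14, and the medians of the chaperone lists varied more widely. Dbp was at 24.1, 9.08, 11.3, 5.18 and 7.96 FPKM with AL on days 1, 7, 14, 21 and 30, and at 43.3, 46.3, 45.6, 29.2 and 33.5 FPKM with IF. Hspa8 was at 399, 506, 570, 512 and 534 FPKM with AL and at 248, 299, 286, 495 and 277 FPKM with IF, so that the diets differed least on day 21. The median log2 change of the heat shock list was -0.34, -0.57, -0.72, -0.16 and -0.74 in the order of days, and that of the endoplasmic reticulum list -0.52, -0.24, -0.57, -0.06 and -0.15. Xbp1 was highest with AL on day 14, at 82.0 FPKM against 61.3 to 71.2 FPKM on the other days, and lowest with IF, at 48.8 FPKM against 50.7 to 65.6 FPKM. Lcn2 varied widely among AL groups, from 17.8 ± 23.1 FPKM on day 30 to 110 ± 108 FPKM on day 14. It was no lower with IF than with AL in the mean of the other days (log2 change 0.05).

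**Figure D5:**
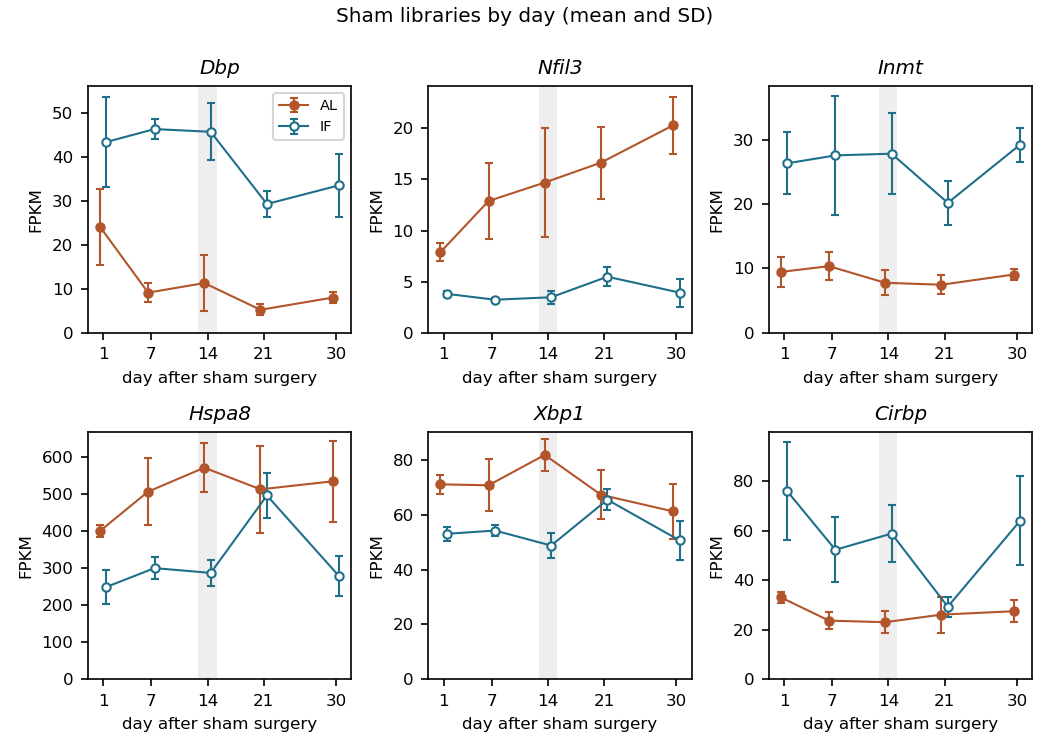
Mean level (FPKM) with SD over 3 or 4 libraries for 6 genes in sham mice on days 1, 7, 14, 21 and 30, with AL as filled and IF as open circles and day 14 shaded. Dbp, Nfil3 and Inmt are apart on every day shown, and Hspa8, Xbp1 and Cirbp come together on day 21, with Cirbp at 26.1 FPKM with AL and 29.3 FPKM with IF.

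A small set of genes passed in the same direction in sham mice on all 5 days and in BCAS mice on day 14. These 16 genes, counted over comparisons that share no library, were Dbp, Per3, Tef, Cry2, Inmt, Ephx1, Tspan4, Mthfd1l, Wnk2 and Amy1, which were higher with IF, and Arntl, Nfil3, Spon2, Foxs1, Leo1 and Dpy19l3, which were lower. Of them 6 are in the clock list. On day 14 Wnk2, a kinase of ion transport, rose by 0.61 ± 0.09, Leo1, a subunit of the PAF1 elongation complex, fell by 0.70 ± 0.10, and Foxs1, a forkhead factor of mural cells, fell by 0.81 ± 0.21 on the log2 scale. Wnk2, Amy1, Leo1, Foxs1 and Dpy19l3 were chosen after their values were seen. Foxs1 lost its day 14 call without AL replicate 2 (adjusted p = 0.0723), Dpy19l3 without IF replicate 2 (0.0543) and Amy1, 1 of a family of similar amylase genes, without AL replicate 2, IF replicate 1 or IF replicate 3 (up to 0.102). In contrast 262 of the 689 genes passed in none of the other 5 comparisons taken singly. Some of the 262 passed in the mean of the other sham days, such as Zfp467 and Dok3 (adjusted p in limma = 0.00184 and 0.00526). None passed the test of the difference between day 14 and that mean.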

How the data were processed

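The authors deposited FPKM values for 54532 genes, 1 column per library. DESeq 1.10.1 is named per the submitters' processing notes, and the aligner and the counting rule are not given in the sources used here. Whole cerebral artery RNA was taken with an RNeasy kit, per the labels' protocols. Multiplied by gene length, 100% of the deposited FPKM values under 1000 fragments were whole multiples of 1 fragment (tolerance 0.05), which gave each library's depth. Median-ratio size factors of the deposited values were 1.005 to 1.006 over the 78 libraries, so the values were already on a median-ratio scale. Of the gene IDs 54409 were in GENCODE M21, and 98.33% had the same coordinates, so positions are on GRCm38.

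The 15707 genes that reached 1 FPKM in 3 or more libraries were tested on log2(FPKM + 1), where the pseudocount of 1 FPKM understates changes of low genes. The test was limma 3.58.1 (trend and robust options), with 20 group means over 78 libraries (58 residual degrees of freedom) and Benjamini-Hochberg adjustment over all genes at 0.05. The difference of the diet effect between surgeries and between days was a contrast in the same model. The procedure was tested on simulated data. Groups came from the labels, and replicate numbers follow accession order. Named genes were the 15 largest rises and falls among those past the threshold at 1 FPKM or more in either group, up to 4 members of each gene list with the smallest p, a panel of vessel, clock and fasting genes, and the 5 smallest p of each difference. Gene models without a symbol-type name were passed over. The comparison and the lists were chosen with earlier results of these data known. The other settings tried were the pseudocount, the filter, the scaling, limma-voom, the robust option, the libraries in the model, and covariates for brain tissue and blood. Some genes of the lists count in their totals and are not reported here by name.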

Additional observations from a re-analysis of the deposited data

Results flagged for a closer look

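Among 236 sets of 4 libraries, 20 held 1 library far from the other 3, where chance gives about 1 in 20 sets. IF replicate 4 was the shallowest of its group, at 15.91 M fragments against 23.38 to 23.93 M in the others. It was also the highest IF library in Hspa1b (10.22 FPKM), Hsph1 (23.1 FPKM) and Lcn2 (7.829 FPKM), and the lowest in Wisp2 (28.65 FPKM).

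IF replicate 1, the library with the most oligodendrocyte transcripts, was the lowest of its group in Dbp (35.94 FPKM), Nr1d2 (24.35 FPKM), Per2 (7.788 FPKM) and Grrp1 (9.334 FPKM). In these 3 clock genes it still lay above every AL library. IF replicate 3 was the lowest in Xbp1 (42.03 FPKM) and Serpinh1 (140.4 FPKM) and the highest in Bag3 (32.61 FPKM). IF replicate 2 was the only IF library with a value above 0 for Ighv1-82 (0.4434 FPKM).

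AL replicate 2 was the highest of its group in Acta2 (6155 FPKM), Col8a1 (19.25 FPKM), Foxs1 (46.77 FPKM) and Lox (35.85 FPKM), and the lowest in Cpt1a (23.14 FPKM). AL replicate 3 was the lowest in Dnajb1 (12.15 FPKM) and Wee1 (2.953 FPKM).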

How the results depend on the processing

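The count of 689 genes was 357 with only the 8 compared libraries in the model and 421 with only sham libraries. It was 332 to 711 when single libraries were left out, and 91 without AL replicates 1 and 2. With another pseudocount, filter, scaling, covariate or tool it was 509 to 793, and it was 852 without 3 libraries with a high share of short-gene fragments (genes under 300 bases). limma-voom on recovered fragments called 690, of which 619 were among the 689. Without AL replicates 1 and 2 the clock genes that rose numbered 5, the heat shock chaperones that fell 5 and the endoplasmic reticulum stress genes that fell 4. Without AL replicates 3 and 4 these counts were 9, 14 and 8, and 646 genes passed in all. The cause was not tested. The difference between BCAS and sham mice called 0 genes under every setting run. The difference between day 14 and the other days called 0 to 3 when single libraries were left out (3 without AL replicate 4 of day 14, and 1 each without IF replicate 1 of day 7 or AL replicate 4 of day 21) and 10 without AL replicates 3 and 4 of day 14. Of 84 called genes followed through all settings, 55 passed in every fit that left out 1 library and 38 in every setting, and none changed sign while called. No paired analysis was possible because the labels give no replicate numbers that the groups share. Genes of low level, under 1 FPKM in all but 2 libraries, were not tested at this depth. A gene that did not pass is not shown to be equal between the diets.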
